A study of Arabidopsis thaliana with 12 samples.

Results

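The 47 genes described here are nuclear genes of Arabidopsis thaliana that encode the chlorophyll a/b-binding antenna proteins, the small subunit of Rubisco and subunits of both photosystems. They were chosen by gene name, 47 of the 33010 genes in the deposited table, and fall into 15 antenna genes of photosystem II (LHCB), 6 antenna genes of photosystem I (LHCA), 4 Rubisco small subunit genes (RBCS), 12 photosystem I subunit genes (PSA) and 10 photosystem II subunit genes (PSB). Their transcripts were quantified by sequencing RNA from the shoots and the roots of wild-type Col-0 (WT) and of plants overexpressing CCA1 (CCA1-ox), a MYB-type regulator from the core of the circadian clock. All seedlings were 8 days old and grew at 22 °C in unbroken white light of 15 µE, so WT and CCA1-ox plants shared age, light and temperature. Each of the 4 groups, WT shoots, CCA1-ox shoots, WT roots and CCA1-ox roots, held 3 libraries. The promoter that drives CCA1, the number of independent lines and the hour of harvest are not stated in the sources used here.

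In a chloroplast, the LHCB and LHCA proteins hold chlorophyll and pass excitation energy to photosystem II and photosystem I. The PSB and PSA subunits surround the reaction centres, whose core proteins are encoded in the plastid, and Rubisco fixes carbon dioxide with large subunits made in the plastid and small subunits imported from the cytosol. Transcripts of these nuclear genes are abundant in green tissue, respond to light and cycle over the day. CCA1 was originally described as a protein that binds the promoter of LHCB1.3, the gene also known as CAB1.

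Levels are the deposited FPKM (fragments per kilobase, scaled by library size), which rest on 37216665 to 44242304 gene-assigned fragments in shoot libraries and 27142671 to 45051329 in root libraries. CCA1 rose in both organs, from 44.96 to 214 FPKM in shoots (log2 fold change 2.23) and from 17.1 to 175 in roots (3.28), with no overlap between WT and CCA1-ox libraries. The organ labels were checked against markers. The 8 shoot markers of guard cells, trichomes, leaf polarity and the shoot meristem summed to 149.5 to 152.9 FPKM in WT shoots and 0.218 to 0.438 in WT roots, where FAMA, GL1 and YAB1 were at 0. The 11 root markers summed to 187.2 to 196.9 FPKM in WT roots and 5.84 to 7.33 in WT shoots, where 4 were at 0. Log2 changes compare log2(FPKM + 1), so those of weakly expressed genes are understated. Each adjusted p comes from limma, corrected by Benjamini and Hochberg's method over 20975 genes, and a gene was called when it was under 0.05. Since no label names separate cultures, these p-values cover the spread between samples alone, and that spread may be technical.

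In WT shoots the 47 genes together held 13.2% ± 0.0599 of all fragments (SD, n = 3), and in CCA1-ox shoots 11.4% ± 0.0534. In roots the share was 0.0413% ± 0.000484 in WT and 0.0294% ± 0.00147 in CCA1-ox. In WT shoots 37 of the 47 genes stood above 1000 FPKM, led by LHCB1.3 at 17442 ± 96.6, RBCS1A at 9707 ± 154 and LHCB1.5 at 7111 ± 109 FPKM; LHCB1.3 had the highest FPKM of any gene in all 6 shoot libraries. All 47 were lower in WT roots than in WT shoots, a comparison in which 87.2% of all tested genes were called, 41.8% lower and 45.3% higher, with a median log2 fold change of -8.58 against 0.035 over all genes. The root level was under 1% of the shoot level for 43 genes, and its median over the 47 was 0.204%. The highest shares were those of LHCB4.3, at 26.5%, and LHCB7, at 10.5%, both low in shoots, at 5.104 ± 0.762 and 20.1 ± 0.2997 FPKM. Only 10 genes exceeded 10 FPKM in WT roots, 26 lay between 1 and 10, and 11 lay below 1. The order of levels in WT roots was not that in shoots: PSBR led at 67.6 ± 2.55 FPKM, ahead of LHCB1.5 at 35.5 ± 1.67, LHCA4 at 23.2 ± 0.872, PSBO1 at 22.3 ± 0.726 and LHCB4.1 at 20.4 ± 1.26. LHCA4 and PSBO1, neighbours in that order, differed by less than the sum of their SDs, whereas PSBR and LHCB1.5 lay far outside theirs.

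**Figure D1:**
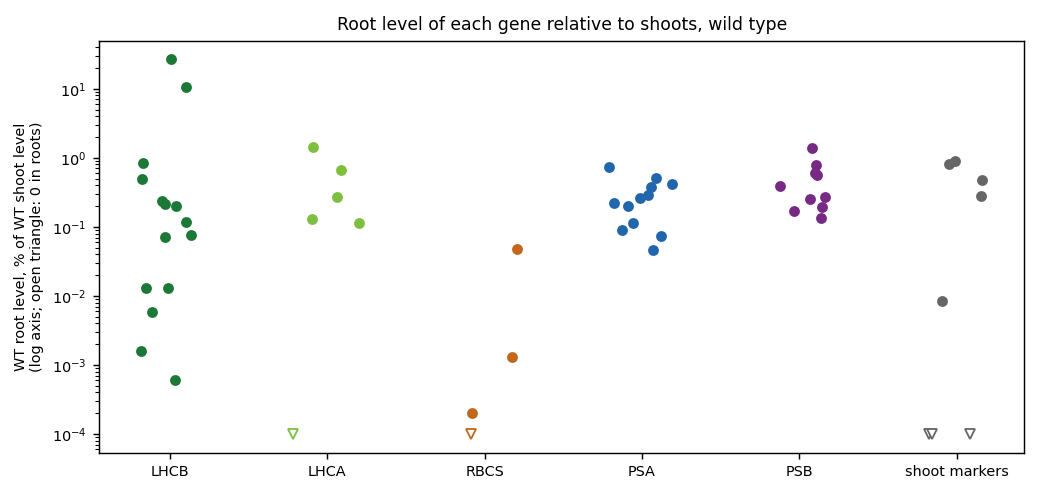
Level of each of the 47 genes in WT roots as a percentage of its level in WT shoots (log axis; open triangles mark genes with no fragment in WT roots). Most genes lie under 1%, with a median of 0.204%; the 4 above 1% are LHCB4.3 (26.5%), LHCB7 (10.5%), LHCA5 (1.43%) and PSBR (1.398%).

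All 47 genes passed the filter on low values through their shoot levels, and 35 would have passed on roots alone. In shoots, 36 of the 47 fell in CCA1-ox and 2 rose, where 55.5% of all tested genes were called, 28.9% lower and 26.6% higher. In roots, 32 fell and 3 rose, where 36.3% of all tested genes were called, 15.4% lower and 20.8% higher. The median log2 fold change of the 47 was -0.35 in shoots and -0.66 in roots, against -0.0083 and 0.016 over all genes. A fall was called in both organs for 28 genes, LHCB1.5 rose in both, and LHCB1.1 was the only gene with opposite calls, lower in shoots and higher in roots. The libraries of WT and CCA1-ox did not overlap for 46 of the 47 genes in shoots, as for 60.4% of all genes tested, and for 36 in roots, as for 47.2% of all genes. By complex, the genes called lower in shoots were 10 of 15 LHCB, 3 of 6 LHCA, 4 of 4 RBCS, 11 of 12 PSA and 8 of 10 PSB; in roots they were 7 of 15, 3 of 6, 1 of 4, 11 of 12 and 10 of 10. The 9 genes not called in shoots were LHCB2.1, LHCB2.2, LHCB3, LHCA1, LHCA3, LHCA4, PSAD2, PSBQ2 and PSBS. This list depends on the fit of all 12 libraries with a shared spread. A fit of shoots alone called LHCB2.2, LHCA1, LHCA4 and PSBS higher and LHCA3, PSAD2 and PSBQ2 lower.

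In a bulk sample, fewer cells of a type and less RNA per cell cannot be told apart. Markers moved with genotype as well: the 8 shoot markers summed to 118.9 to 120.8 FPKM in CCA1-ox shoots, below the WT range, with 5 called lower, STM called higher and 2 not called, and none was at 0. The 11 root markers summed to 11.7 to 15.5 FPKM in CCA1-ox shoots, above the WT range, with CASP1 and MYB36 called higher, WOX5 called lower and 8 not called. In roots the root markers summed to 251.9 to 265.2 FPKM in CCA1-ox, above WT, with 6 higher and none lower, and the shoot markers to 0.180 to 0.432, with the same 3 at 0. The part of these shifts in the results on the photosynthetic genes was not tested. The deposited values also rest on the authors' library sizes: scaling to the summed fragments moved the shoot median over all genes by 0.098 and gave 31 falls and 7 rises, ending the calls of LHCB1.1, PSAE2, PSAL, PSAO and PSBW. Quantile normalization gave 18 falls and 10 rises; it sets LHCB1.3, the top gene of each shoot library, equal between groups by construction, and it also ended the calls of LHCB4.1, LHCB4.2, LHCB5, LHCA2, PSAD1, PSAG, PSAN, PSBP1, PSBW and PSBX. The 9 genes whose sign it changed included LHCB1.1, LHCB6, PSAE2, PSAL, PSAO, PSBO1 and PSBY, called lower otherwise. A pseudocount of 0.1 ended 8 calls in shoots, those of LHCB1.1, LHCB1.2, RBCS1A, PSAE2, PSAG, PSAH2, PSAL and PSBW.

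**Figure D2:**
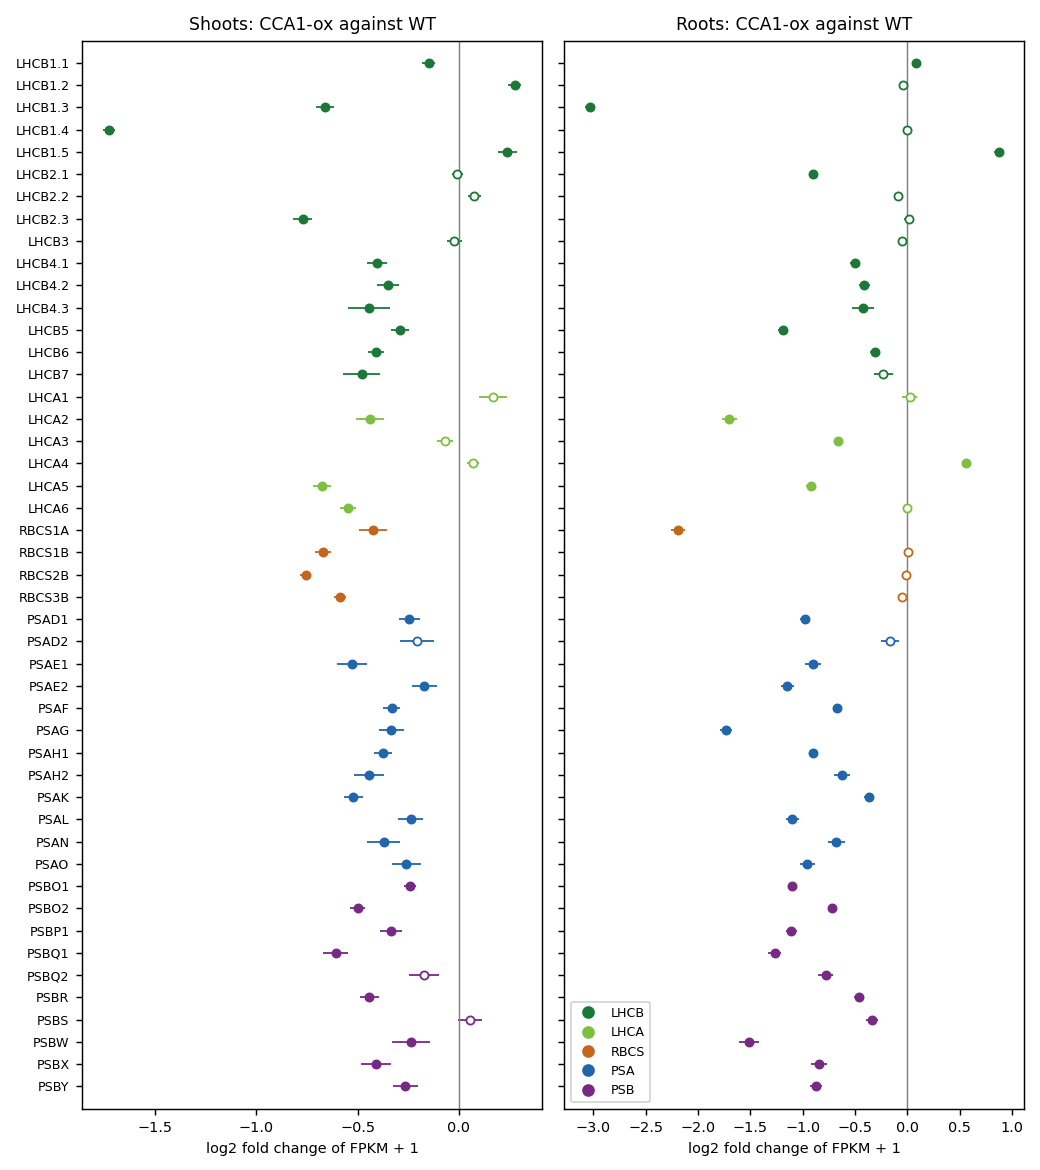
Log2 fold change of CCA1-ox against WT on the log2(FPKM + 1) scale for each of the 47 genes, in shoots and in roots, grouped by complex (filled points passed the test, open points did not, bars are SE). Most points lie below 0 in both organs, with LHCB1.4 lowest in shoots at -1.73 and LHCB1.3 lowest in roots at -3.03.

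The LHCB1 genes encode the most abundant antenna protein of photosystem II, and their 5 copies moved in opposite directions. LHCB1.3 (AT1G29930, chr1:10477885-10479114, plus strand on TAIR10) and LHCB1.1 (AT1G29920, chr1:10474656-10475969, minus strand) lie close together on chromosome 1 with LHCB1.2 (AT1G29910, chr1:10472280-10473502, minus strand). LHCB1.4 (AT2G34430, chr2:14524607-14525918, plus strand) and LHCB1.5 (AT2G34420, chr2:14522524-14523568, minus strand) are neighbours on chromosome 2 that face away from each other. The promoters of 4 copies are shown because the copies differ in response and CCA1 is known to bind such a promoter. Each run is the 300 bases before the annotated gene start, 5′ to 3′ on the strand of the gene, from the RefSeq TAIR10.1 genome, and capitals mark a match on either strand to the CCA1 binding site, AAAAATCT or AACAATCT. The windows are chr1:10475970-10476269 (minus strand), chr1:10477585-10477884 (plus), chr2:14524307-14524606 (plus) and chr2:14523569-14523868 (minus).
LHCB1.1: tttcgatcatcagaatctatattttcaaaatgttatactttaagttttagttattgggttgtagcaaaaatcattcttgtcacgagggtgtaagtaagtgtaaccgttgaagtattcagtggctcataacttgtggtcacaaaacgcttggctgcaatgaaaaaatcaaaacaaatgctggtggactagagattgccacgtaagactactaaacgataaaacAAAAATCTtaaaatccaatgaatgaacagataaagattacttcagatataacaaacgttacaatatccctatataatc
LHCB1.3: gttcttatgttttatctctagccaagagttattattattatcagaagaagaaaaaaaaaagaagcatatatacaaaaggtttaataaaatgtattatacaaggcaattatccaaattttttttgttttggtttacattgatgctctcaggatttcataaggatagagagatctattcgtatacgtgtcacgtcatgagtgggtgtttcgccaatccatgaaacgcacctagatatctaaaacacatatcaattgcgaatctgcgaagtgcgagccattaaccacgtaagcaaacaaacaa
LHCB1.4: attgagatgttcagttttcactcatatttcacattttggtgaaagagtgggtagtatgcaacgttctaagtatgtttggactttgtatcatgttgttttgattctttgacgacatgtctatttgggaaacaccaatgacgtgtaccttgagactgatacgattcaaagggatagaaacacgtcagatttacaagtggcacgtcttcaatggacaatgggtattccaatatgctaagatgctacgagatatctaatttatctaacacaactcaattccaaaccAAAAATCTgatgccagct
LHCB1.5: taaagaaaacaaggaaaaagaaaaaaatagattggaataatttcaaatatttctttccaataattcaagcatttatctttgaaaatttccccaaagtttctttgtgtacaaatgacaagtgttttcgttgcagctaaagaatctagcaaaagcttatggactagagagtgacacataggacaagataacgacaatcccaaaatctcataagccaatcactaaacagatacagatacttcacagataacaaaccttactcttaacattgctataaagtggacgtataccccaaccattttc

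The letters AAAAATCT stood in this window in LHCB1.1, at 78 to 71 bases before the start, and in LHCB1.4, at 18 to 11 bases before it. No match stood in the windows of LHCB1.2, LHCB1.3 and LHCB1.5. Downstream of the start, within 150 bases that were searched after the sequences had been seen, LHCB1.3 held the letters at bases 14 to 21 and LHCB1.4 at bases 11 to 18, as did 4.71% of 27304 genes in the same window. These stretches of 30 bases (chr1:10477887-10477916 and chr2:14524607-14524636, plus strand, TAIR10.1) read as follows, with the match in capitals.
LHCB1.3 after start: taaaccccaaaAAAAATCTatgactagcca
LHCB1.4 after start: cgacaagacaAAAAATCTaagctcaaaaat

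LHCB1.3 was measured at 17346, 17539 and 17439.7 FPKM in WT shoots and 11161, 11076 and 10869 in CCA1-ox shoots. Every CCA1-ox library lay below every WT library, at 0.633 times the WT mean (log2 change -0.66 ± 0.0466 (SE), adjusted p = 5.24e-08). In roots it stood at 12.4, 12.5 and 14.4 FPKM in WT and 0.791, 0.633 and 0.729 in CCA1-ox, 0.0549 times the WT mean (log2 change -3.03 ± 0.0466 (SE), adjusted p = 4.400e-14). This was the deepest fall of the 47 in roots on the log2(FPKM + 1) scale, and the groups lay far apart. By the ratio of means RBCS1A went lower in roots, to 0.0488 times its WT mean. LHCB1.4 had 4212, 4320.3 and 4247 FPKM in WT shoots and 1277, 1288 and 1295 in CCA1-ox shoots (log2 change -1.73 ± 0.0291 (SE), adjusted p = 2.19e-14), the deepest fall of the 47 in shoots. In roots LHCB1.4 was at or near 0 in both groups, at 0.0175, 0.0588 and 0 FPKM in WT and 0, 0.0237 and 0.05399 in CCA1-ox, so no effect could be read there.

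LHCB1.5, the neighbour of LHCB1.4, rose. It had 6991, 7202 and 7139.8 FPKM in WT shoots and 8268, 8396 and 8496 in CCA1-ox shoots (log2 change 0.24 ± 0.0474 (SE), adjusted p = 7.76e-04). In roots it had 34.9, 34.1 and 37.3 FPKM in WT and 71.1, 66.3 and 60.1 in CCA1-ox (log2 change 0.87 ± 0.0474 (SE), adjusted p = 1.17e-08), again with no overlap. LHCB1.2 also rose in shoots, from 3843, 3921 and 3844 to 4653, 4681 and 4705 FPKM (log2 change 0.27 ± 0.0339 (SE), adjusted p = 1.27e-05). LHCB1.1 fell slightly in shoots, from 2629.8, 2686 and 2628 to 2394, 2381 and 2389 FPKM (log2 change -0.15 ± 0.03104 (SE), adjusted p = 0.001096). The fall of LHCB1.1 was no longer called with a pseudocount of 0.1 or with scaling to summed fragments, and under quantile normalization the gene was higher (0.22). The call of LHCB1.1 as higher in roots rests on 8 fragments over 3 WT libraries and 14 over 3 CCA1-ox libraries, and it was lost in 11 of 12 fits that left out a single library (adjusted p from 0.0574 to 0.137; the exception left out CCA1-ox roots replicate 3).

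The summed LHCB1 level, given without a test, was 35022, 35669 and 35299 FPKM in WT shoots and 27753, 27822 and 27754 in CCA1-ox shoots, 0.786 times the WT mean, and in roots it went from 47.6, 46.8 and 52.02 to 72.2, 67.3 and 61.1 FPKM. The share of LHCB1.3 in that sum went from 49.4% ± 0.182 to 39.7% ± 0.531 in shoots (SD, n = 3), the share of LHCB1.4 from 12.1% ± 0.0480 to 4.63% ± 0.0335, and the share of LHCB1.5 from 20.1% ± 0.144 to 30.2% ± 0.4095. In roots LHCB1.5 made up 72.6% ± 0.834 of the LHCB1 sum in WT and 98.4% ± 0.0636 in CCA1-ox. The coding sequences of the copies are 87.4% to 96.4% identical, and 1.51% to 4.44% of 100-base windows of their transcripts occur unchanged in another of the 47 genes, so fragments of these windows could be assigned to either copy. A second limit is overlap on the other strand, which is widest for LHCB1.5. Its whole span of 1045 bases is overlapped by AT2G08665, which went from 207 ± 12.5 to 255 ± 12.6 FPKM in shoots and from 0.962 ± 0.2603 to 2.302 ± 0.529 in roots. LHCB1.5 also shares 99 bases with RWA3 (12.29 FPKM in WT roots, 13.82 in CCA1-ox roots). LHCB1.3 shares 108 bases with NRPA2 (14.63 FPKM in WT roots, 14.9 in CCA1-ox roots). The libraries were made with a stranded kit, but whether the counting used strand is not stated in the sources used here.

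**Figure D3:**
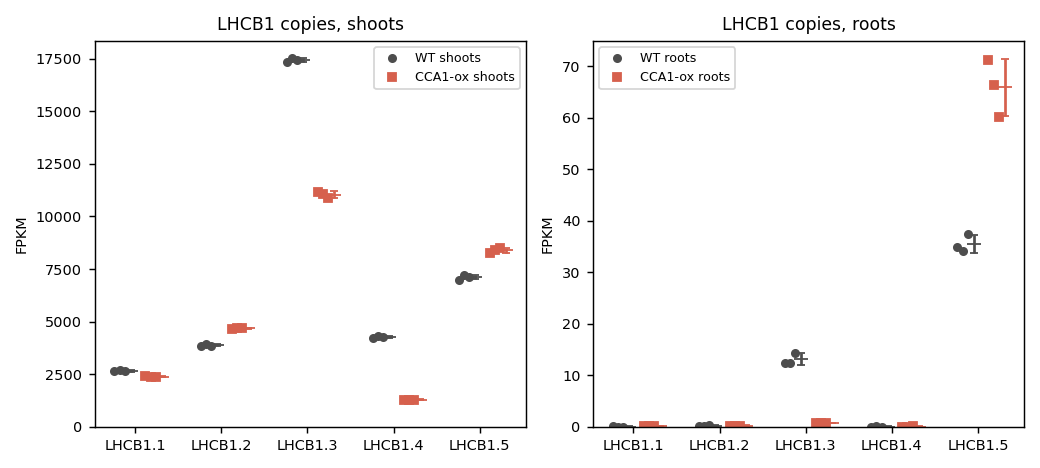
FPKM of the 5 LHCB1 copies in each library of the 4 groups, with mean ± SD beside the points. LHCB1.3 and LHCB1.4 are lower in CCA1-ox shoots than in WT shoots, while LHCB1.5 is higher in CCA1-ox in both organs.

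The other LHCB genes encode further antenna proteins: LHCB2 and LHCB3 join LHCB1 in the peripheral trimers, and LHCB4, LHCB5 and LHCB6 are monomeric proteins that link the trimers to the core. LHCB2.3 fell in shoots from 687, 687 and 679 to 401, 407 and 393 FPKM (log2 change -0.77 ± 0.0446 (SE), adjusted p = 6.99e-09), while LHCB2.1 and LHCB2.2 were not called there (log2 changes -0.0085 and 0.076). LHCB2.1 fell in roots, from 0.949, 0.988 and 1.06 to 0.0954, 0.0443 and 0.0672 FPKM (log2 change -0.90 ± 0.0281 (SE), adjusted p = 5.32e-11), with no overlap between the groups. Of 100-base windows of the transcripts, 9.87% in LHCB2.1 and 12.36% in LHCB2.2 occur unchanged in another of the 47 genes. Fragments of these windows could be assigned to either copy. The summed LHCB2 level was 0.937 times WT in shoots, but above WT once libraries were scaled to their summed fragments (log2 ratio 0.015). LHCB3 was not called in either organ (-0.022 in shoots, -0.052 in roots). LHCB5 had 3735, 3734 and 3679 FPKM in WT shoots against 3080.3, 3065 and 2979.5 in CCA1-ox shoots (log2 change -0.29 ± 0.04398 (SE), adjusted p = 8.34e-05). The fall was deeper in roots, from 8.16, 7.503 and 8.36 to 3.26, 2.87 and 2.74 FPKM (log2 change -1.19 ± 0.04398 (SE), adjusted p = 2.84e-10). LHCB4.1, LHCB4.2, LHCB4.3 and LHCB6 fell in both organs, with log2 fold changes of -0.40, -0.35, -0.44 and -0.41 in shoots and -0.50, -0.41, -0.42 and -0.31 in roots. LHCB7, a rare relative, fell in shoots (-0.48) and was not called in roots (-0.23).

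The LHCA genes encode the antenna of photosystem I, in which LHCA1 to LHCA4 form the main belt and LHCA5 and LHCA6 are minor proteins that join photosystem I to the NDH complex. Their summed level moved least of the 5 complexes in shoots. LHCA4, the most abundant (AT3G47470, chr3:17493343-17495033, minus strand), had 3494, 3519 and 3416 FPKM in WT shoots and 3641, 3639 and 3650.0 in CCA1-ox shoots and was not called (log2 change 0.068 ± 0.0299 (SE), adjusted p = 0.0715). In roots LHCA4 rose, from 24.2, 22.7 and 22.8 to 35.97, 33.3 and 35.1 FPKM (log2 change 0.56 ± 0.0299 (SE), adjusted p = 9.21e-09), the only LHCA gene to do so; it overlaps ATSMC2 on the other strand by 53 bases, whose own root level was 4.24 ± 0.0556 FPKM in WT and 4.21 ± 0.146 in CCA1-ox. LHCA2 moved the other way in roots, from 3.81, 3.03 and 2.78 to 0.3096, 0.354 and 0.201 FPKM (log2 change -1.70 ± 0.0688 (SE), adjusted p = 6.55e-10). In shoots LHCA2 fell from 2463, 2476 and 2464 to 1853, 1841 and 1767 FPKM (log2 change -0.44 ± 0.0688 (SE), adjusted p = 1.08e-04). The groups did not overlap in either organ.

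LHCA5 fell in shoots from 183, 189 and 181 to 116, 114 and 116 FPKM (log2 change -0.67 ± 0.0452 (SE), adjusted p = 3.104e-08) and in roots from 2.47, 2.52 and 2.93 to 0.908, 0.873 and 0.9700 (log2 change -0.92 ± 0.0452 (SE), adjusted p = 4.24e-09). LHCA6 fell in shoots from 125, 124 and 118 to 80.95, 85.01 and 83.8 FPKM (log2 change -0.55 ± 0.0396 (SE), adjusted p = 6.68e-08) and had no fragment in any of the 6 root libraries, which allows up to 0.0498 to 0.0866 FPKM by the limit of 3 fragments, for counting error only. LHCA3 was not called in shoots (-0.069) and fell in roots from 5.59, 5.297 and 5.06 to 3.095, 3.16 and 2.72 FPKM (log2 change -0.66 ± 0.03999 (SE), adjusted p = 3.24e-08). LHCA1 was called in neither organ (0.17 in shoots, 0.023 in roots). A fit of shoots alone called LHCA1 and LHCA4 higher and LHCA3 lower. In the fit of all libraries, LHCA2, LHCA5 and LHCA6 fell in shoots, and LHCA2, LHCA3 and LHCA5 fell in roots while LHCA4 rose. The summed LHCA level in shoots was 97.5% ± 0.474 of WT, and it lay above WT when libraries were scaled to their summed fragments (log2 ratio 0.072).

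All 4 RBCS genes, which encode the small subunit of Rubisco, fell in shoots. RBCS1A (AT1G67090, chr1:25048158-25049667, minus strand), the most abundant, had 9838, 9537 and 9746 FPKM in WT shoots and 7282, 7356 and 7086 in CCA1-ox shoots (log2 change -0.42 ± 0.0681 (SE), adjusted p = 1.37e-04). The B genes had lower log2 changes: RBCS2B went from 3414, 3449 and 3359 to 2017, 2076 and 1959.7 FPKM (log2 change -0.76 ± 0.0265 (SE), adjusted p = 3.79e-11). RBCS1B went from 811, 755 and 739 to 486, 501 and 459 (log2 change -0.67 ± 0.0406 (SE), adjusted p = 1.14e-08) and RBCS3B from 3571, 3436 and 3501 to 2321, 2381 and 2299 (log2 change -0.59 ± 0.03095 (SE), adjusted p = 2.77e-09). In none of the 4 did the groups overlap, and the sum over the family was 69.45% ± 1.48 of WT, the lowest of the 5 complexes in shoots. The coding sequences of the 4 copies are 90.4% to 97.25% identical. Of 100-base windows of the transcripts, 7.465% in RBCS1B and 12.06% in RBCS3B occur unchanged in another of the 47 genes. Fragments of these windows could be assigned to either copy.

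In WT roots the family was almost entirely RBCS1A, at 5.31, 4.12 and 4.38 FPKM, 98.8% ± 1.099 of the RBCS sum. In CCA1-ox roots it fell to 0.317, 0.246 and 0.112 FPKM, 0.0488 times the WT mean (log2 change -2.19 ± 0.0681 (SE), adjusted p = 5.32e-11). The RBCS sum in CCA1-ox roots was 5.18% ± 2.195 of WT. RBCS1B, RBCS2B and RBCS3B had at most a few fragments in any root library and were not called.

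Among the 12 photosystem I subunit genes, 11 fell in both organs and PSAD2 was called in neither (-0.21 in shoots, -0.17 in roots). A fit of shoots alone called PSAD2 lower. PSAG (AT1G55670, chr1:20802670-20803449, minus strand), whose protein helps anchor the antenna belt, had the highest mean in WT shoots, within the summed SDs of PSAO (2639.6 ± 69.3 against 2596 ± 56.7 FPKM), with 2697, 2659 and 2563 FPKM in WT shoots and 2135, 2111 and 2041 in CCA1-ox shoots (log2 change -0.33 ± 0.0613 (SE), adjusted p = 4.19e-04). In roots PSAG went from 2.801, 2.697 and 3.46 to 0.129, 0.2796 and 0.182 FPKM (log2 change -1.73 ± 0.0613 (SE), adjusted p = 1.81e-10), the deepest root fall of the group. The deepest shoot fall of the group was that of another gene. PSAE1, one of the copies for a stromal subunit near the ferredoxin docking site, fell in shoots from 2531, 2524 and 2421 to 1751, 1737 and 1694 FPKM (log2 change -0.53 ± 0.07499 (SE), adjusted p = 4.495e-05). Its other copy PSAE2 moved less there (-0.17), and that call was lost when WT shoots replicate 1 or 2 or any CCA1-ox shoots library was left out (adjusted p from 0.0507 to 0.0723). In roots PSAE2 carried the larger share of the family and went from 7.92, 7.92 and 7.26 to 3.09, 3.29 and 2.45 FPKM (log2 change -1.15 ± 0.0608 (SE), adjusted p = 9.08e-09).

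PSAK, which sits at the antenna side of the complex, fell in shoots from 2588, 2602 and 2503 to 1779.7, 1788 and 1793 FPKM (log2 change -0.52 ± 0.0453 (SE), adjusted p = 4.25e-07). PSAH2, a copy of the subunit where mobile LHCII docks, fell from 1880.1, 1812 and 1784 to 1404, 1320.3 and 1298 FPKM (log2 change -0.45 ± 0.0738 (SE), adjusted p = 1.75e-04). PSAL, which works beside PSAH, fell in roots from 1.92, 2.52 and 2.12 to 0.353, 0.547 and 0.559 FPKM (log2 change -1.10 ± 0.0616 (SE), adjusted p = 1.57e-08) and by less in shoots (-0.24). The remaining members, PSAD1, PSAF, PSAH1, PSAN and PSAO, fell by 0.25 to 0.37 on the log2 scale in shoots and by 0.67 to 0.98 in roots. The summed level of the 12 was 78.5% ± 0.951 of WT in shoots and 50.15% ± 4.01 in roots.

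The 10 photosystem II subunit genes all fell in roots and 8 fell in shoots, where PSBQ2 and PSBS were not called (-0.17 and 0.054). A fit of shoots alone called PSBQ2 lower and PSBS higher. PSBR (AT1G79040, chr1:29735952-29737009, plus strand), a subunit beside the oxygen-evolving complex, had 4892, 4923 and 4704 FPKM in WT shoots and 3540.1, 3595 and 3553 in CCA1-ox shoots (log2 change -0.44 ± 0.0466 (SE), adjusted p = 2.82e-06). Its root level, the highest of the 47 in WT but below LHCB1.5 in CCA1-ox, went from 64.9, 68.1 and 69.9 to 47.6, 53.7 and 45.5 FPKM (log2 change -0.46 ± 0.0466 (SE), adjusted p = 4.52e-06), with no overlap. PSBO, PSBP and PSBQ form the lumenal cap of the oxygen-evolving complex. PSBQ1 fell in shoots from 1543, 1505 and 1509 to 989, 995 and 1003 FPKM (log2 change -0.61 ± 0.0633 (SE), adjusted p = 2.47e-06) and in roots from 3.04, 2.904 and 2.95 to 0.437, 0.844 and 0.687 (log2 change -1.27 ± 0.0633 (SE), adjusted p = 5.200e-09). PSBO2, the minor copy of the manganese-stabilising protein, fell in shoots from 1076, 1068 and 1057 to 757, 754 and 752 FPKM (log2 change -0.50 ± 0.03696 (SE), adjusted p = 8.39e-08), and the major copy PSBO1 by less (-0.24). In roots the order of these copies was the other way round (-0.72 for PSBO2 and -1.10 for PSBO1). PSBP1 fell in roots from 11.7, 10.4 and 11.7 to 4.92, 5.04 and 4.16 FPKM (log2 change -1.11 ± 0.0526 (SE), adjusted p = 3.103e-09).

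PSBW (AT2G30570, chr2:13019028-13020311, minus strand), a small subunit that helps hold photosystem II supercomplexes, had the deepest root fall of the group, from 3.19, 3.73 and 3.21 to 0.2800, 0.846 and 0.518 FPKM (log2 change -1.51 ± 0.0935 (SE), adjusted p = 4.08e-08). Its shoot fall (-0.24) was close to the threshold and was lost in 9 of 12 fits that left out a single library (adjusted p from 0.0541 to 0.1035), namely any shoot library, WT roots replicate 1 or 3, or CCA1-ox roots replicate 3. PSBX and PSBY, further small subunits, fell in both organs (-0.41 and -0.26 in shoots, -0.84 and -0.87 in roots). PSBS, which triggers the dissipation of excess light energy, was called lower in roots (-0.34). The summed level of the 10 was 79.0% ± 0.789 of WT in shoots and 58.3% ± 4.31 in roots.

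**Figure D4:**
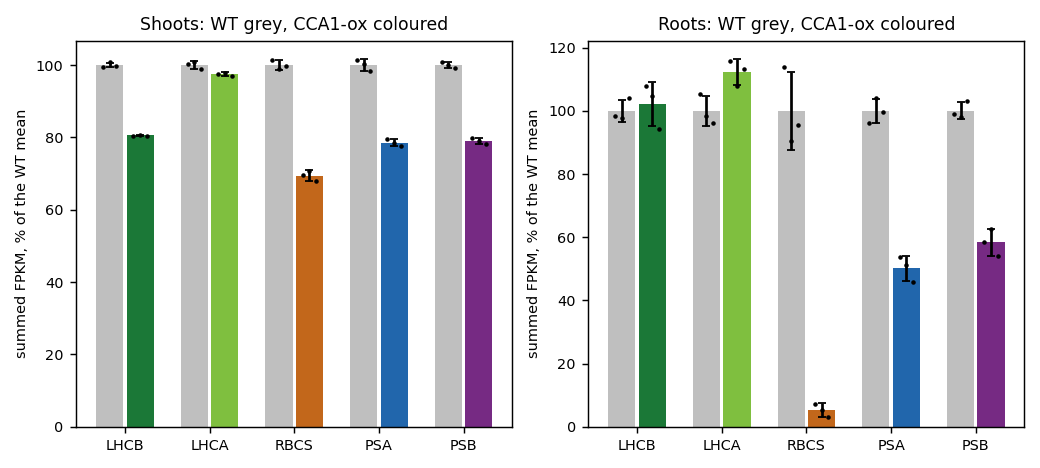
Summed FPKM of each complex per library as a percentage of the WT mean of the same organ (bars are means, error bars SD over 3 libraries, dots libraries). In shoots the CCA1-ox bars run from 69.45% for RBCS to 97.5% for LHCA; in roots they run from 5.18% for RBCS to 112.2% for LHCA.

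The size of the genotype effect was compared between organs with the interaction term, the root effect minus the shoot effect. It was called for 36 of the 47 genes, 27 lower and 9 higher, where 50.7% of all tested genes were called, 23.5% lower and 27.2% higher. A lower value means that the root effect was more negative. On the log2(FPKM + 1) scale the most negative calls of each complex were LHCB1.3 (-2.37), RBCS1A (-1.77), PSAG (-1.40), PSBW (-1.28) and LHCA2 (-1.26). Among LHCB genes this order depends on the scale. By ratios of means LHCB2.1 (0.994 in shoots, 0.0691 in roots) differed more between organs than LHCB1.3 (0.633 and 0.0549). Of the 9 higher calls, 7 belong to genes below 0.3 FPKM in both root groups, among them LHCB1.4, LHCA6 and RBCS2B, and the lower calls of LHCB1.2 and LHCB2.2 are of this kind too. These 9 genes passed the filter through shoots, so their interaction mostly restates the shoot value. LHCB2.2 is an exception, with effects of 0.076 in shoots and -0.087 in roots, neither of them called. The other two genes called higher, LHCB1.5 (0.63) and LHCA4 (0.49), had the more positive effect in roots, at genes of over 10 FPKM there. On a pseudocount of 5 the higher calls numbered 17, and by voom on the fragments 2, with the calls of LHCB1.4, LHCA6 and RBCS2B among those lost; voom also ended the lower calls of LHCB1.2 and LHCB2.2.

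The motifs were counted in the 300-base windows of all 47 genes, beside 27443 protein-coding genes. The CCA1 binding site stood in 6 windows (12.8%, against 9.99% of all): those of LHCB1.1, LHCB1.4, LHCA4, PSAE2, PSAN and PSAO. The evening element, AAAATATCT, stood in the window of LHCA5 alone (2.13%, against 2.79%). The G-box, CACGTG, stood in 10 windows (21.3%, against 7.09%) and the I-box, GATAAG, in 10 (21.3%, against 14.5%), both known from light-regulated promoters.

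Neighbouring parts of the pathway were followed in lists of named genes, to be read against the 28.9% of all tested genes called lower in shoots and the 15.4% in roots. Of 11 electron transport genes, 10 fell in shoots and LFNR2 rose, and 10 fell in roots; FD1, a leaf ferredoxin, and PETE2, a plastocyanin, fell by 1.06 and 0.63 on the log2 scale in shoots, and PETC, the Rieske protein of the cytochrome complex, and FD1 fell by 1.81 and 1.58 in roots. Of 16 Calvin cycle genes, 15 fell in shoots, among them GAPA2 (-0.71) and RPI3 (-0.66). In roots 11 fell and TKL1 and RPI3 rose, with GAPA1 (-1.59) and RCA, the Rubisco activase (-1.32), lowest. The root rise of RPI3 was small (0.10), and its WT and CCA1-ox libraries overlapped. Of 8 genes for proteins related to the antenna, 7 were called lower and ELIP1 higher in shoots. ELIP2 (-0.86) and OHP1 (-0.58) were lowest among these falls. The call of ELIP1 (0.28) rests on few fragments, 18 to 35 per WT library against 27 to 44 per CCA1-ox library, and these ranges overlap. ELIP2 was weak in shoots too: its CCA1-ox mean was 0.421 FPKM against a WT mean of 1.597, without overlap. All 8 fell in roots, with LIL3:2 (-1.36) and ELIP2 (-1.24) leading. Of 12 assembly and state-transition genes, 11 fell in each organ, led by CPN60A (-0.61) and PSB28 (-0.58) in shoots and PSB27 (-1.06) and HCF136 (-1.06) in roots.

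GLK1 and GLK2, transcription factors that activate many genes of this set, changed little: GLK1 fell in shoots (-0.13), GLK2 was not called there (0.053), and neither was called in roots (0.009 and -0.10). Among 8 plastid-encoded genes, psbA (-0.60) and psbB (-0.43), which encode core proteins of photosystem II, fell in shoots, a share near that of all tested genes called lower (28.9%). In roots, where 15.4% of all tested genes were lower, 3 fell, among them psbC (-0.45) and psbA (-0.36), and no plastid gene rose in either organ. Levels of the plastid genes in these libraries were low and uneven, and how fully the libraries captured plastid transcripts was not tested. The 8 summed to 118.9 to 166.0 FPKM in WT shoots and 99.7 to 120.9 in CCA1-ox shoots, ranges that overlap. Root sums were 3.41 to 6.02 FPKM in WT and 1.87 to 2.96 in CCA1-ox.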

How the data were processed

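The values are FPKM that the authors deposited for 33010 genes in 12 libraries, placed on the TAIR10 genome (build named in the submitters' processing notes). Aligner, counter and use of strand in counting are not stated in the sources used here. FPKM multiplied by gene length gave whole fragments for 100% of values within 0.1, and these recovered fragments gave the depth of each library. Testing covered the 20975 genes that reached an FPKM of 1 in 3 or more libraries. With limma 3.58.1 in R 4.3.3, log2(FPKM + 1) of all libraries was modelled by 4 group means, and variances were moderated along a mean-variance trend (residual df of 8). All p-values are two-sided and were adjusted by the Benjamini-Hochberg method. The code was tested on simulated data.

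The 47 genes, the further lists and the motifs were chosen with earlier results of these data known. Library values are given for the most abundant gene per complex, for the 3 largest called changes per organ, for the extreme interactions, and, chosen after their values were seen, for LHCB1.1, LHCB1.2 and LHCB1.5. Promoters were read from the RefSeq TAIR10.1 genome, in which all 47 genes have the positions of the deposited table. In 12 replicate pairs no library repeated another. Of the 47 genes, 16 overlap a gene on the other strand and 2 overlap one on the same strand, so their values are uncertain. Alternatives were other pseudocounts, filters and scalings, voom on the fragments, fits of 1 organ, a replicate block and leaving out each library.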

Additional observations from a re-analysis of the deposited data

Results flagged for a closer look

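The genotype effect differed between shoots and roots for 36 of the 47 genes by the interaction term of limma with Benjamini-Hochberg adjustment over 20975 genes, of which 50.7% were called. These include 9 genes below 0.3 FPKM in both root groups (LHCB1.1, LHCB1.2, LHCB1.4, LHCB2.2, LHCB2.3, LHCA6, RBCS1B, RBCS2B and RBCS3B), for which no root effect can be read. Values are the root effect minus the shoot effect on the log2(FPKM + 1) scale, and each stands in parentheses. More negative in roots were, among LHCB genes, LHCB1.2 (-0.31), LHCB1.3 (-2.37), LHCB2.1 (-0.89), LHCB2.2 (-0.16) and LHCB5 (-0.9). Among LHCA genes these were LHCA2 (-1.26), LHCA3 (-0.59) and LHCA5 (-0.25), and among RBCS genes RBCS1A (-1.77). The PSA genes were PSAD1 (-0.73), PSAE1 (-0.37), PSAE2 (-0.98), PSAF (-0.34), PSAG (-1.4), PSAH1 (-0.53), PSAL (-0.86), PSAN (-0.31) and PSAO (-0.7). The call of PSAN was lost in 8 of 12 fits that left out a single library (adjusted p from 0.0525 to 0.1038), namely any but WT shoots replicate 1, CCA1-ox shoots replicate 3, WT roots replicate 3 and CCA1-ox roots replicate 1. The PSB genes were PSBO1 (-0.86), PSBO2 (-0.22), PSBP1 (-0.77), PSBQ1 (-0.66), PSBQ2 (-0.61), PSBS (-0.39), PSBW (-1.28), PSBX (-0.43) and PSBY (-0.61).

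Higher values were found for LHCB1.1 (0.24), LHCB1.4 (1.73), LHCB1.5 (0.63) and LHCB2.3 (0.79) among LHCB genes, for LHCA4 (0.49) and LHCA6 (0.55) among LHCA genes and for RBCS1B (0.68), RBCS2B (0.75) and RBCS3B (0.53) among RBCS genes. Of these genes only LHCB1.5 and LHCA4 lay above 0.3 FPKM in a root group. By voom on the fragments the calls of LHCB1.1, LHCB1.2, LHCB1.4, LHCB2.2, LHCB2.3, LHCA6, RBCS1B, RBCS2B and RBCS3B were lost. RBCS3B also changed sign there (-0.79).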

How the results depend on the processing

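Scaling libraries to their summed fragments moved the all-gene median by 0.098 in shoots, -0.061 in roots, -0.16 in the interaction and 0.30 between organs. It gave 7 rises among the 47 genes in shoots, and LHCB2.1 changed sign (0.10). The log2 ratios of the summed levels in shoots then became -0.24 for LHCB1, 0.015 for LHCB2, -0.28 for LHCB4, -0.12 for PSAD, -0.30 for PSAE, -0.32 for PSAH, -0.20 for PSBO, -0.28 for PSBQ, -0.20 for all LHCB, 0.072 for all LHCA, -0.42 for RBCS, -0.24 for all PSA and -0.23 for all PSB, each by construction shifted by the same amount. Quantile normalization gave 10 rises and 18 falls in shoots, where LHCB1.1 (0.22), LHCB3 (0.33), LHCB6 (0.060), LHCA3 (0.24), PSAE2 (0.11), PSAL (0.092), PSAO (0.043), PSBO1 (0.15) and PSBY (0.024) changed sign. It sets LHCB1.3, ranked 1 in each shoot library, equal by construction. In the interaction LHCB1.1 (-0.13), LHCB6 (-0.36) and PSAK (-0.21) changed sign under it. Rises in shoots numbered 1 with a pseudocount of 0.1, 4 with a pseudocount of 5, 6 by voom and 6 in a fit of shoots alone, against 2. Higher interactions numbered 17 with a pseudocount of 5 and 2 by voom, against 9. There LHCB4.2 (0.16), LHCA5 (0.29), PSAE1 (0.22), PSAH1 (0.083), PSAH2 (0.27), PSBO2 (0.068) and PSBQ1 (0.11) changed sign with the pseudocount and RBCS3B (-0.79) by voom. The cause of these shifts was not tested. Leaving out 1 library gave 2 to 5 rises and 34 to 38 falls in shoots (5 rises without WT roots replicate 1, 4 without CCA1-ox roots replicate 2), 2 to 3 and 32 to 34 in roots, 9 to 11 and 26 to 28 in the interaction, and 0 and 47 between organs. Deviations from the group means correlated at -0.044 to 0.071 over 18 same-numbered pairs of libraries and at -0.079 to 0.068 over 36 differently numbered pairs. These weak values do not settle whether the numbers pair the samples. With a replicate block the counts were 2 and 36, 3 and 32, 9 and 27, and 0 and 47, and no call changed. In roots the precision of low genes is limited by depth, as several rest on a few fragments.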
